A study of Homo sapiens with 10 samples.

Results

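The responses of HL60 and K562 to OR21 at the same 500 nM dose were compared over 4 of the 10 arrays of the series. For each gene the response of a line was its log2 intensity on the treated array minus that on the control array, and the K562 response was subtracted from the HL60 response. All 17687 named genes entered the comparison. The genes and lists described below were chosen by the size of the difference or with earlier results of these data known. A positive difference means that the change was more positive in HL60, and 1 log2 unit is a 2-fold difference. HL60 is an established acute myeloid leukaemia line, used here in its parental form, and K562 is an established chronic myeloid leukaemia line. OR21, also written OR-2100, is a hypomethylating agent that the series describes as resisting breakdown by cytidine deaminase. The 4 groups were HL60 control, HL60 with OR21, K562 control and K562 with OR21, each labelled with a period of 96 hours. What the control cells received is not in the labels used here. The other 6 arrays held MDSL and SKM1 cells, whose treated arrays received 100 nM, and 2 resistant HL60 derivatives. Each condition had 1 array, so every value below is a size with no test, no replicate error and no p-value. A gene that differed between the lines may also differ between 2 cultures of 1 line, and that spread was not measured.

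Hypomethylating nucleoside analogues are built into DNA during replication and trap the maintenance methyltransferase DNMT1, so that methylation is lost as cells divide. Genes held silent by promoter methylation can then be transcribed again, and germline genes, cancer-testis antigens and interferon-stimulated genes are the classes best known for it. HL60 cells are promyelocyte-like and can mature into granulocytes, monocytes or macrophages under inducing agents. K562 cells carry the BCR-ABL1 fusion, make embryonic and fetal globins, and can be driven along the erythroid or megakaryocytic path.

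The lines were told apart on the control arrays by their own markers. MPO, the peroxidase of primary granules, stood at 17.01 log2 in HL60 and 6.23 in K562, and PRTN3, a neutrophil serine protease, at 14.78 and 5.93. The embryonic globin HBZ stood at 3.94 in HL60 and 13.68 in K562, and the erythroid factor GATA1 at 6.80 and 13.14. Background probe sets had medians of 5.41 to 5.43 log2 on the 4 arrays. A gene was taken as measured in a line when the higher of its 2 arrays lay at least 1 log2 unit above that median, which held in both lines for 8948 genes (50.6%). It held in HL60 alone for 1092 genes, in K562 alone for 840 and in neither for 6807. The filter passes a gene through its higher array, so a gene silent in the control can pass because it is high in treated cells.

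One of these arrays, treated HL60, differed from the other 9 in its added control RNA. Its hybridisation spikes, RNA added in fixed amounts, averaged 11.71 log2 against 10.85 to 11.10 on the others, and its polyadenylated spikes 8.06 against 6.86 to 7.51. Gene medians lay at 6.65 and 6.82 on the control and treated HL60 arrays and at 6.63 and 6.77 on those of K562. Scaling each array to its hybridisation spikes took the all-gene median of the response difference to -0.94 log2 from -0.08, whereas the other scalings gave -0.11 to 0.06. Every HL60 response rests on this one array, and the part of the array in any difference was not tested. Positive-control probe sets changed by -0.42 log2 in HL60 and -0.28 in K562.

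The 250 bases before the start of 8 genes are shown because these genes mark the corners of the comparison: 2 that were higher in treated HL60 and lower in treated K562, 2 with the reverse pattern, 2 higher by about the same amount in both lines and 2 lower in both. They are RefSeq sequences on GRCh38.p14, written 5′ to 3′ on the strand of the gene, with each CpG, the dinucleotide that carries DNA methylation, in capitals. C3AR1 lies on the minus strand (chr12:8066360-8066609), as do CD3D (chr11:118342706-118342955) and MATK (chr19:3801800-3802049). TENT5C (chr1:117605798-117606047), RGCC (chr13:41457300-41457549), TCP11L2 (chr12:106302483-106302732), YPEL5 (chr2:30146757-30147006) and MRTO4 (chr1:19251555-19251804) lie on the plus strand.
C3AR1: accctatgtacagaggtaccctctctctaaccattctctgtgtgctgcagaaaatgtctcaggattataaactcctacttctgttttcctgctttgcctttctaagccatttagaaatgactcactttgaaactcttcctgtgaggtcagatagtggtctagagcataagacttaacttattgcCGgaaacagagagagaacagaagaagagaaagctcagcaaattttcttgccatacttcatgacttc
CD3D: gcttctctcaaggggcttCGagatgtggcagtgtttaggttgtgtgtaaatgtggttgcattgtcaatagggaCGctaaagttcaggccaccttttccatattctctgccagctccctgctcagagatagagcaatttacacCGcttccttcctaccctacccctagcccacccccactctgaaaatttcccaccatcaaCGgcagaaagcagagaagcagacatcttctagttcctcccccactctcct
TENT5C: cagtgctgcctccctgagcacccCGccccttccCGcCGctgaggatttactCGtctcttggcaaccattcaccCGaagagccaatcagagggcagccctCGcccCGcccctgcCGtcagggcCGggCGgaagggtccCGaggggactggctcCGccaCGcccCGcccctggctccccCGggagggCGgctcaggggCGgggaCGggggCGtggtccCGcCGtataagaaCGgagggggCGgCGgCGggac
RGCC: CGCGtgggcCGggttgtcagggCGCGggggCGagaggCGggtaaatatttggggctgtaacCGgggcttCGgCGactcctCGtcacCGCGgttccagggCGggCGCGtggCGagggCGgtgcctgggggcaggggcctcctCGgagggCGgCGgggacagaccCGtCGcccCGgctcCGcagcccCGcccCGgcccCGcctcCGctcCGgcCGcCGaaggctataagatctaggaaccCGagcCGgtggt
TCP11L2: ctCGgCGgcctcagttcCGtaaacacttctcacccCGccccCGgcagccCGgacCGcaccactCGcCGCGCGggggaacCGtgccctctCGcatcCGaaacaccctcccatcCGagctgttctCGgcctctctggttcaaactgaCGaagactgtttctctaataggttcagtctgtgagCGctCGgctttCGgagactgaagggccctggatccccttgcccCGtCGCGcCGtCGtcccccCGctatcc
YPEL5: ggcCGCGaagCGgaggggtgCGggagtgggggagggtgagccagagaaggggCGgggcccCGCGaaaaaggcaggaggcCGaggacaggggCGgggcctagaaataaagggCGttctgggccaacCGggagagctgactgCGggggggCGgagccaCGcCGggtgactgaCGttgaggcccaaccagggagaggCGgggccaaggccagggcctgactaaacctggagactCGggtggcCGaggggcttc
MRTO4: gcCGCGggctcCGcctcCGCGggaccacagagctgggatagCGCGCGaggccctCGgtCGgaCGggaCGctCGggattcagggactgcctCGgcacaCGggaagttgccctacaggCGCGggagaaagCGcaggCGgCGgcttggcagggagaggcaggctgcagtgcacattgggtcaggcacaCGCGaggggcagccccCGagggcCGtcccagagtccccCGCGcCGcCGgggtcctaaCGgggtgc
MATK: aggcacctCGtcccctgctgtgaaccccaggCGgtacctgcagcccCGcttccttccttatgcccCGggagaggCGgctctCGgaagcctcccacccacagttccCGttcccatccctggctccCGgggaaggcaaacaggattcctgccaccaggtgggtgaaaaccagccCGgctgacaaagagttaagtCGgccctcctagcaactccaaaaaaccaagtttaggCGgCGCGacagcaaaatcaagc

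Both windows of the genes higher in HL60 and lower in K562 were poor in CpG, with 1 in C3AR1 and 4 in CD3D. The reverse pair was rich in it, with 25 in TENT5C and 34 in RGCC. Those of the shared responses held 26 in TCP11L2, 19 in YPEL5, 29 in MRTO4 and 13 in MATK. Across gene sets this split was small. A 300-base promoter was available for 14250 genes, with a median of 22 CpG, and for 7523 of the genes measured in both lines, with a median of 26. The median was also 26 for the genes at least 2-fold more positive in HL60 and for those at least 2-fold more positive in K562. Promoters with under 5 CpG made up 8.8% of the first set and 3.1% of the second, against 4.3% of all genes measured in both lines and 16.2% of all genes. Methylation itself was not measured on these arrays.

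At a size of 2-fold, 1887 of 17687 genes (10.7%) had a more positive response in HL60 and 2264 (12.8%) in K562. Among the 8948 genes measured in both lines the counts were 1023 (11.4%) and 1512 (16.9%). Which line had more such genes depended on the scaling, since scaling to the positive-control probe sets gave 2324 and 1740 and scaling to the hybridisation spikes 682 and 8359. With the values as deposited, larger differences ran the other way. At least 4-fold, 314 genes measured in both lines were more positive in HL60 and 275 in K562, and at least 16-fold, 57 and 10. These larger sizes were not counted under the other scalings, so whether their order depends on the scaling was not tested. The median difference of these 8948 genes was -0.18 log2 and the SD across genes was 1.10.

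The HL60 response was the wider of the 2. Across the 8948 genes its SD was 1.19 log2 against 0.72 in K562. Over all genes, a 2-fold size was passed upward by 1802 (10.2%) and downward by 1962 (11.1%) in HL60, against 893 (5.05%) and 682 (3.86%) in K562. A size of 4-fold was passed by 654 genes upward and 431 downward in HL60, against 176 and 22 in K562. Genes lower by that much were few in K562 beside HL60. Across the 8948 genes the HL60 and K562 responses had Pearson's r = 0.431 and Spearman's rho = 0.396, given as a description over genes of 4 arrays. On the same genes the HL60 response had r = 0.633 with that of SKM1 and 0.432 with that of MDSL, both at 100 nM, and the K562 response had 0.351 and 0.264.

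Genes measured in both lines were sorted by whether each line moved at least 2-fold. Of the 8948, 5732 moved in neither line, 791 were higher in HL60 alone and 1379 lower in HL60 alone. In K562 alone 247 were higher and 199 lower. Shared changes comprised 239 genes higher and 280 lower in both lines, and opposite changes 41 genes higher in HL60 and lower in K562 and 40 the other way. Among the 280 shared lower genes the drop was larger in HL60 for 244, and at least 2-fold larger for 92, while 0 had a drop at least 2-fold larger in K562. Among the 239 shared higher genes the change was larger in HL60 for 159, at least 2-fold larger in HL60 for 69 and in K562 for 25.

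**Figure D1:**
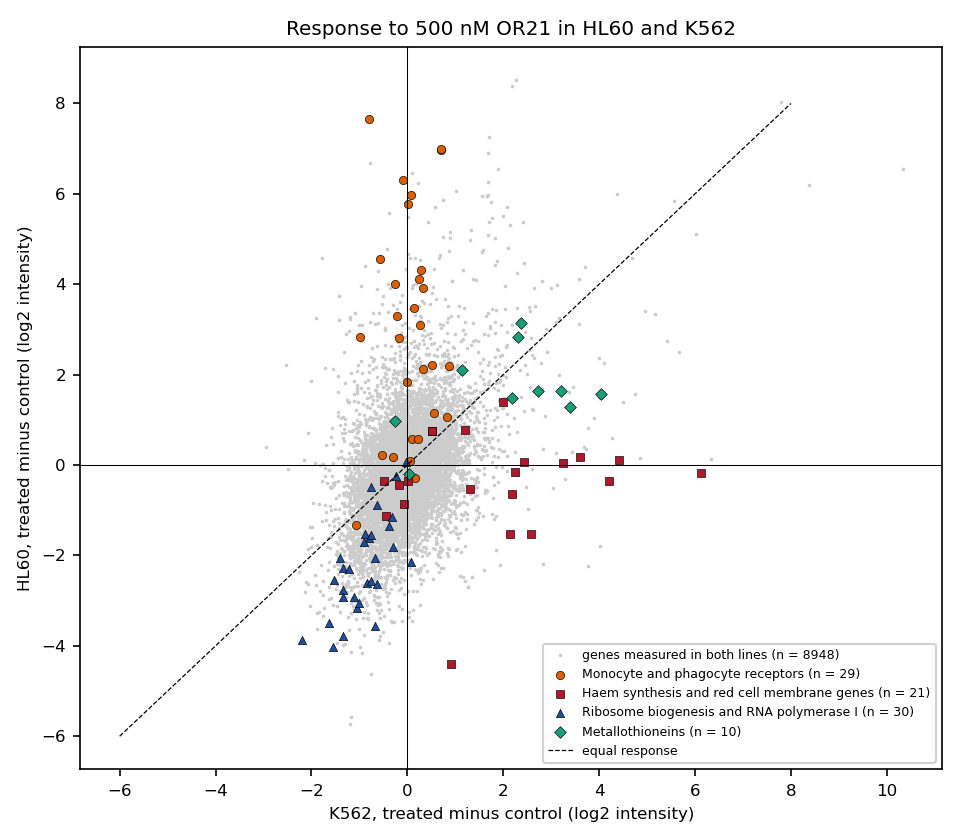
Response of each gene to 500 nM OR21, treated minus control in log2 intensity, in K562 (horizontal) and HL60 (vertical), for the 8948 genes measured in both lines (grey) and all members with a value of 4 gene lists (coloured), with a dashed line where both responses are equal. Phagocyte receptors run up the vertical axis, haem and red cell membrane genes along the horizontal one, metallothioneins lie in the upper right and ribosome biogenesis genes mostly in the lower left below the dashed line.

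The 1023 genes more positive in HL60 were mostly set by HL60: 699 were at least 2-fold higher there and 130 at least 2-fold lower in K562. Their median response was 1.42 log2 in HL60 and -0.24 in K562. In 610 of them the untreated HL60 level lay below that of untreated K562, and in 836 the treated HL60 level lay above that of treated K562, so that the order of the lines crossed in 423. The 1512 genes more positive in K562 had medians of -1.36 in HL60 and 0.11 in K562, and 1019 were at least 2-fold lower in HL60 while 218 were at least 2-fold higher in K562. The lines lay further apart after treatment in 647 of the 1023 and in 1101 of the 1512. The counts of which line lay higher, of crossed order and of distance reuse the array values that sorted the genes. Sorting alone favours a low control and a high treated HL60 level in the first set, and the reverse in the second. No share over all genes was set beside these counts, so they describe the sorted sets and do not test them. In SKM1, which the sorting did not use and which received 100 nM, 82.6% of the first set were higher with OR21 and 74.6% of the second lower. Of all genes measured in both lines, 49.4% were higher in SKM1. In MDSL, also at 100 nM, the shares were 74.3% and 69.0%, against 47.3% higher overall.

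Among genes measured in both lines, the largest difference toward HL60 was that of CD52, a small glycosylphosphatidylinositol-anchored antigen of leukocytes. It stood at 8.97 log2 on the control and 15.64 on the treated HL60 array, and at 12.60 and 11.83 in K562, a difference of 7.44 log2 or 174-fold. Untreated HL60 was the lowest of the 4 and treated HL60 the highest. CD14, the co-receptor for bacterial endotoxin on monocytes, went from 7.64 to 14.60 in HL60 and from 6.26 to 6.95 in K562 (6.28). The complement receptor CR1 went from 7.09 to 14.03 and from 8.28 to 8.98 (6.23). Both are surface proteins of mature phagocytes, and in both K562 moved by less than 1 log2 unit. G0S2, an inhibitor of the lipase that opens fat droplets, went from 6.81 to 13.06 in HL60 and stayed at 6.30 and 6.52 in K562 (6.02). MILR1, an immunoreceptor of mast cells, went from 8.54 to 14.12 and from 7.74 to 7.36 (5.95). IER3, an early response gene, went from 7.89 to 15.14 in HL60 and from 8.47 to 10.17 in K562 (5.54), the one of these in which K562 moved over 2-fold.

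SPARC, CD9, CTSH, KRT18 and ID1, also among the largest 12, had an HL60 control under the background median, so their differences are minimum sizes, given here with the dim value set to that median. SPARC, a matrix glycoprotein, reached 10.66 log2 in treated HL60 and stood at 8.39 and 8.48 in K562, a difference of at least 5.16. The tetraspanin CD9 reached 13.91 in HL60 and went from 8.65 to 10.92 in K562, at least 6.22. CTSH, a lysosomal cysteine protease, reached 9.72 in HL60 and stayed at 11.15 and 11.23 in K562, at least 4.23. In CTSH and in KRT18, a simple-epithelial keratin (10.87 in treated HL60, 14.12 and 14.22 in K562, at least 5.35), treated HL60 came closer to K562 without reaching it. ID1, which binds and blocks basic helix-loop-helix factors, reached 7.98 in HL60 and went from 11.34 to 9.55 in K562, at least 4.36. FAM9C, a testis gene, was under background in both controls and reached 13.38 in HL60 and 6.86 in K562, which leaves its difference without a bound.

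Toward K562, LXN, a carboxypeptidase inhibitor, had the most negative difference as read among genes measured in both lines, part of it against a dim control. It stood at 6.94 and 7.08 log2 on the HL60 arrays and reached 10.72 in treated K562 from a control under background, a difference of -5.16 or beyond. TENT5C, a poly(A) polymerase that stabilises messenger RNA, went from 8.73 to 6.50 in HL60 and from 5.90 to 9.67 in K562 (-5.99, 63.7-fold). Treatment therefore reversed which line had more of it. MEST, an imprinted gene, went from 9.56 to 7.78 in HL60 and reached 8.07 in K562 from under background. AQP1, the water channel of red cells, stood at 6.81 and 6.97 in HL60 and went from 7.29 to 12.13 in K562 (-4.69, 25.7-fold).

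Several of these genes were set by a drop in HL60 instead. ABCB10, a mitochondrial transporter needed for haemoglobin synthesis, went from 13.04 to 8.64 in HL60 and from 11.20 to 12.11 in K562 (-5.32). The glutamine transporter SLC38A5 went from 13.55 to 7.83 in HL60 and from 14.12 to 12.93 in K562 (-4.53). GAL, a neuropeptide precursor, stood at 11.52 and 11.54 in the 2 controls and at 5.95 and 10.37 after treatment (-4.41). SLC38A5 and GAL were thus lower in both lines and differed in size. UROS, which closes the ring of the haem precursor, went from 11.64 to 10.10 and from 11.18 to 13.77 (-4.12). PRKACB, a catalytic subunit of protein kinase A, went from 10.70 to 8.00 and from 6.35 to 7.62 (-3.96).

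**Figure D2:**
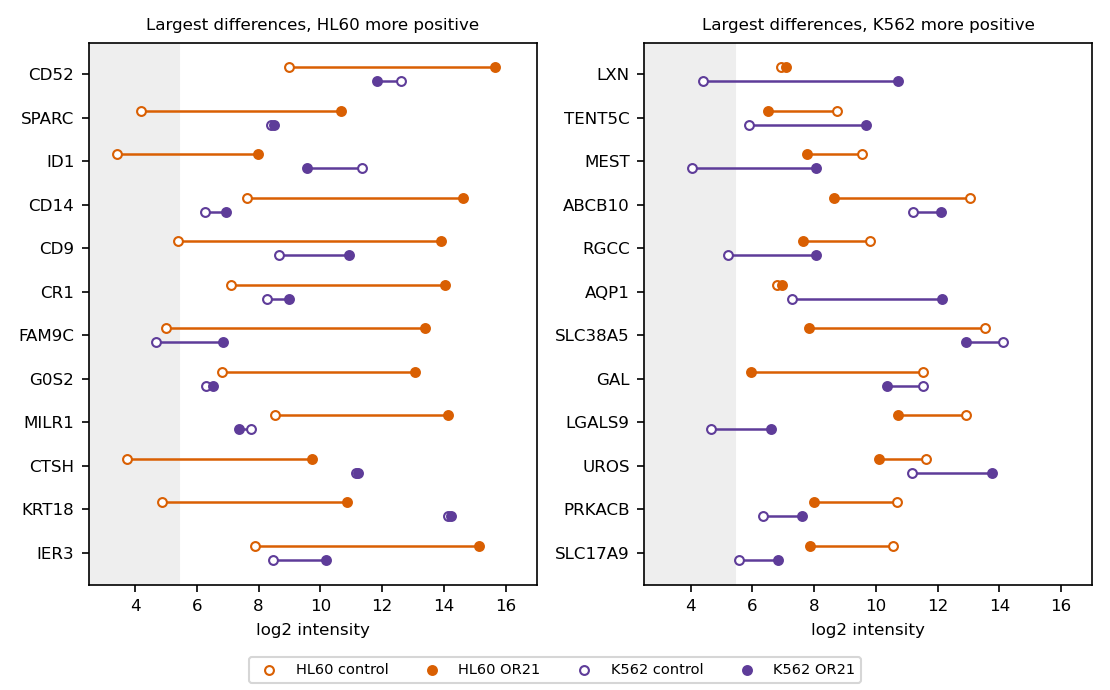
Log2 intensity on the control (open) and treated (filled) arrays of HL60 (orange) and K562 (purple) for the 12 genes with the largest difference in each direction among genes measured in both lines, 1 array a condition, with values under the background median shaded. CD52, CD14 and CR1 show long HL60 segments beside short K562 ones, and TENT5C, RGCC and UROS show segments of opposite direction.

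Among the 41 genes higher in HL60 and lower in K562, the strongest on both sides was C3AR1, the receptor for complement fragment C3a. It went from 10.10 to 12.31 log2 in HL60 and from 7.75 to under background in K562, a difference of at least 4.56. CD3D, a chain of the T cell receptor complex, went from under background to 7.21 in HL60 and from 8.89 to 6.98 in K562, at least 3.70. SH3BGRL3, a thioredoxin-like protein, stood at 11.34 and 11.40 in the 2 controls and at 13.20 in HL60 and 9.40 in K562 after treatment (3.86). The lines were alike in SH3BGRL3 before treatment and differed after it. GALM, the galactose mutarotase, went from 8.05 to 10.17 and from 10.35 to 8.79 (3.68), which moved treated HL60 above treated K562.

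Of the 40 genes with the reverse pattern, RGCC, a regulator of the cell cycle that responds to complement, went from 9.82 to 7.63 log2 in HL60 and from under background to 8.06 in K562, a difference of -4.83 or beyond. LGALS9, the lectin galectin-9, went from 12.92 to 10.71 in HL60 and reached 6.62 in K562, a difference of -3.40 or beyond. The zinc importer SLC39A8 went from 11.84 to 9.96 in HL60 and from 11.05 to 12.90 in K562 (-3.72). FUZ, a planar polarity and cilium protein, went from 9.34 to 7.02 and from 7.97 to 9.58 (-3.92). In SLC39A8 and FUZ, neither of which touched background, the 2 lines exchanged places.

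Shared responses of like size were found as well. At least 4-fold, 56 genes were higher and 6 lower in both lines. YPEL5, a subunit of a ubiquitin ligase complex, went from 9.74 to 12.90 log2 in HL60 and from 9.21 to 12.31 in K562, responses of 3.17 and 3.11. TKTL1, a transketolase-like protein, went from 10.79 to 15.36 and from 11.29 to 15.97, responses of 4.57 and 4.68. ID2, of the same family as ID1, went from 11.18 to 14.18 and from 10.08 to 12.96. The paralogues thus differed, since ID2 was higher in both lines and ID1 in HL60 only. FILIP1L had responses of 3.25 and 3.16, the acetyltransferase KAT2B of 2.17 and 2.04, and TCP11L2, whose HL60 control was under background, of 2.56 and 2.55. The 6 lower genes were MRTO4, a ribosome assembly factor (-2.36 in HL60, -2.26 in K562), the kinase MATK (-2.59, -2.11), the importin IPO4 (-2.62, -2.06), the cadherin FAT1 (-2.81, -2.13), the fatty acid synthase FASN (-3.12, -2.03) and the nucleolar NOP16 (-3.87, -2.19). Treated HL60 was under background for MATK, so its drops cannot be ordered between the lines. In the other 5 the drop was larger in HL60.

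**Figure D3:**
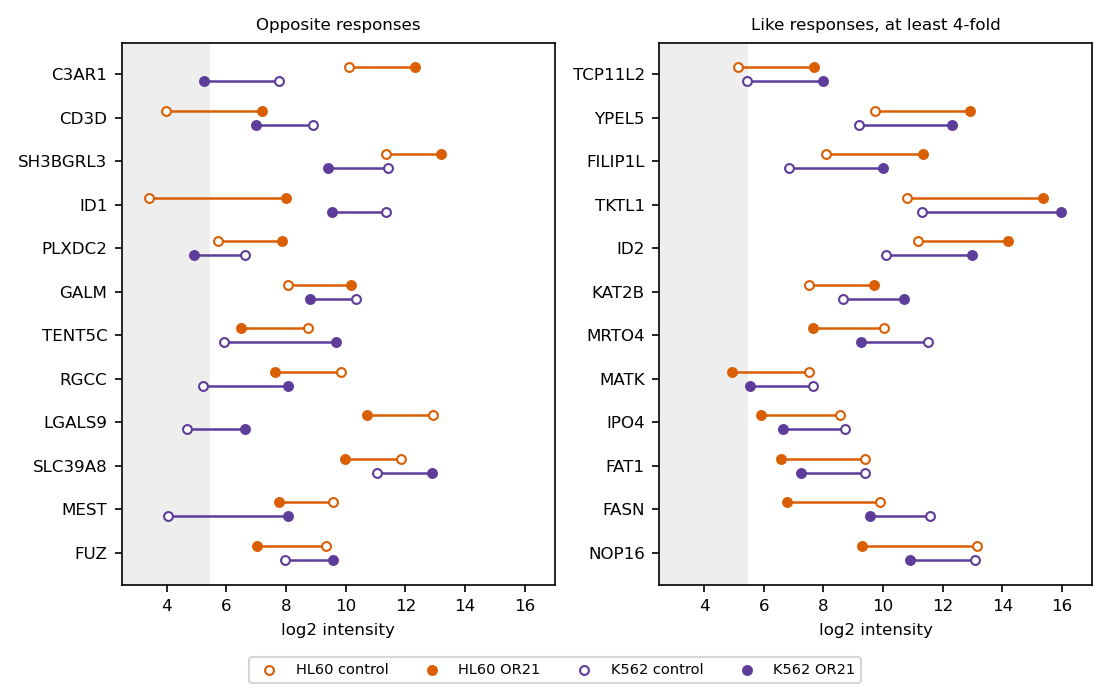
Log2 intensity on the control (open) and treated (filled) arrays of HL60 (orange) and K562 (purple), 1 array a condition, for 12 genes with opposite responses (left) and 12 with responses of one direction that are at least 4-fold in each line (right), with values under the background median shaded. On the left the filled and open points swap sides between the lines, as for SLC39A8 and GALM, and on the right both segments run the same way, with near-equal length for YPEL5 and ID2 and a longer HL60 segment for FASN and NOP16.

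Lists of genes by function were described next, each by its counts past 2-fold beside the 10.7% and 12.8% of all genes. Receptors of monocytes and phagocytes had a more positive response in HL60 in 20 of 29 members and in K562 in 0, with a median difference of 2.99 log2 against -0.08 for all genes. Their medians were 2.82 in HL60 and 0.09 in K562. FPR2, a formyl peptide receptor, went from 10.94 to 15.27 in HL60 and stood at 6.23 and 6.52 in K562. The integrin chain ITGAM (CD11b) went from 5.98 to 9.90 in HL60 and stood at 6.14 and 6.46 in K562 (3.60). FCGR2A, a low-affinity immunoglobulin receptor, was bright in both lines, and went from 11.49 to 14.31 in HL60 and from 13.92 to 12.93 in K562 (3.82). Only 11 of the 29 were measured in both lines, with a median of 1.69. For 16 more only HL60 was measured: FPR1 went from 8.09 to 15.08 there, FCGR3A reached 11.62 and VNN2 12.46 from controls under background, and TREM1 went from 6.94 to 12.71.

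Effector genes of myeloid cells followed the same order. In the list of S100 proteins and secondary granule genes 13 of 18 were more positive in HL60 and 0 in K562 (median 2.09). The differences of 5 members lay below 0, the lowest that of the secondary granule gene LTF (-0.98). In this list 3 members were measured in neither line. S100A8, one chain of the calcium-binding dimer calprotectin, went from 11.67 to 16.80 in HL60 and S100A9, its partner, from 10.95 to 15.64, with K562 at or under 5.35 on all 4 readings of the pair. S100A4, S100A6 and S100A10, which are not limited to myeloid cells, were higher in both lines, by 4.71, 4.07 and 3.96 in HL60 and 1.55, 2.80 and 2.03 in K562. The protease MMP9 went from 5.94 to 15.25 in HL60, and K562 was at 5.54 and 4.96. Of 5 subunits of the NADPH oxidase, which makes superoxide, 4 were more positive in HL60. NCF1 went from 12.77 to 16.21 there and from 5.88 to 6.35 in K562, and CYBB from 14.27 to 15.93 against 6.54 and 6.55. Among lysosomal genes 10 of 22 were more positive in HL60 and 2 in K562 (median 0.92). CTSS, CTSZ and CTSA, 3 lysosomal cathepsins, had differences of 2.99, 3.50 and 2.20.

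Primary granule genes, which mark the promyelocyte stage, went the other way. In this list 4 of 11 were more positive in K562 and 1 in HL60, with a median of -0.65. CTSG, PRTN3 and AZU1, of the serine protease family, went from 13.79 to 10.75, from 14.78 to 11.48 and from 14.21 to 11.69 in HL60. All 3 were bright there, and K562 was at 3.63 to 5.93. K562 thus gave no response to set beside them. MPO stayed high in HL60, at 17.01 and 15.97. PRG2, an eosinophil granule protein, went from 6.83 to 10.59 in HL60.

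Chemokines had a more positive response in HL60 in 11 of 16 members and in K562 in 0 (median 2.11), but only CCL5 was measured in both lines. CCL5 went from 9.55 to 15.04 log2 in HL60 and stood at 6.64 and 6.65 in K562 (5.49). CCL2, a monocyte attractant, went from 8.66 to 15.26 in HL60 and CCL20 from 7.29 to 13.23, with K562 near or under background. NF-kB feedback and inflammatory genes had 11 of 19 more positive in HL60 and 1 in K562 (median 1.02). NFKBIA, the inhibitor that NF-kB itself induces, went from 9.53 to 12.66 in HL60 and from 10.50 to 9.83 in K562 (3.79). TNFAIP3, a second such inhibitor, was higher in both lines, by 2.49 and 1.47. The cytokine IL1B went from 7.43 to 13.70 in HL60 and stood at 5.26 and 5.59 in K562. IL6 went from 5.97 to 7.28 in K562 and was under background in HL60.

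Among genes of haem synthesis and the red cell membrane, 12 of 21 were more positive in K562 and 0 in HL60, with a median difference of -2.36 log2. Their medians were -0.34 in HL60 and 2.00 in K562, where 13 of 21 were at least 2-fold higher. ALAS2, the first and erythroid-specific enzyme of haem synthesis, went from 8.07 to 14.20 in K562 and was under background in HL60. The blood group genes RHCE and RHD went from 8.17 to 12.58 and from 9.10 to 12.69 in K562. The membrane proteins EPB42 and KEL went from 6.41 to 10.62 and from 10.83 to 13.08 there. In HL60 RHD, EPB42 and KEL were under background on both arrays and RHCE on the control.

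Members of the haem and red cell membrane list that were measured in both lines could be set against each other. Over these 12 members, which include transporters, the median was -1.32. FECH, which inserts the iron, went from 9.11 to 7.57 in HL60 and from 10.36 to 12.50 in K562 (-3.68). PPOX stood at 7.85 and 7.92 in HL60 and went from 8.53 to 10.95 in K562 (-2.36), and CPOX went from 8.50 to 7.97 and from 9.82 to 11.12 (-1.83). SLC25A37, the mitochondrial iron importer, went from 10.05 to 9.41 and from 11.14 to 13.33 (-2.83). UROS, FECH, SLC25A37 and CPOX were lower in treated than in control HL60 and higher in treated K562. In HL60 the drops of SLC25A37 and CPOX were under 2-fold.

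Globins were bright in K562 before treatment and higher after it. HBZ went from 13.68 to 16.22 and HBE1, the epsilon globin, from 13.59 to 15.96 in K562, both under background in HL60. HBA2 went from 15.33 to 17.09 in K562 and from 6.02 to 6.80 in HL60. HBA1 is nearly identical in sequence to HBA2, so the 2 alpha globin probe sets may share signal. AHSP, the chaperone of alpha globin, went from under background to 8.62 in K562. Among their regulators, GATA1 had responses of 0.80 in HL60 and 0.15 in K562, and KLF1 stood at 10.17 and 10.34 in K562 and near background in HL60. GATA2, a progenitor-stage factor, went from 6.15 to 9.43 in HL60 and from 10.60 to 9.40 in K562 (4.47), so that treated cells of both lines ended at near-equal levels. BCL11A, a repressor of fetal globin, went from 11.45 to 7.94 in HL60 and was under background in K562.

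**Figure D4:**
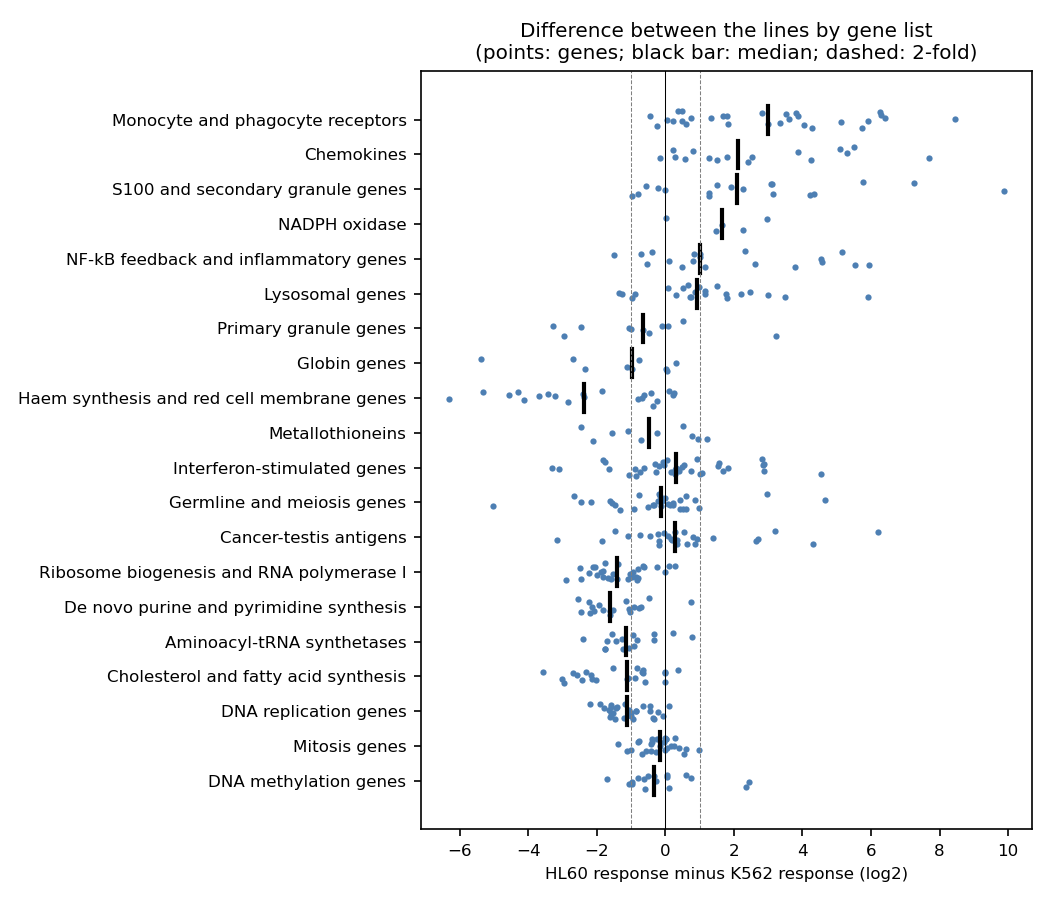
HL60 response minus K562 response, in log2 units, of each member with a value (points) of 20 gene lists, with the list median as a black bar and dashed lines at a 2-fold difference either way. Phagocyte receptors (median 2.99) and chemokines (2.11) lie to the right, haem and red cell membrane genes (-2.36) and purine and pyrimidine synthesis genes (-1.60) to the left, and mitosis genes (-0.16) around 0.

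Myeloid regulators were mixed. Of 24 myeloid transcription factors 8 were more positive in HL60 and 3 in K562 (median 0.11). EGR1, an early growth response factor, went from 8.47 to 10.52 in HL60 and from 10.90 to 10.10 in K562 (2.85). JUN was higher in both lines, by 3.30 and 1.65. PPARG, a nuclear receptor, went from 6.48 to 9.68 and FOS from 6.17 to 8.87 in HL60, with K562 under or near background. SPI1 and CEBPA, central factors of the myeloid lineage, stood at 12.05 and 11.98 and at 11.29 and 11.18 in HL60. GFI1, a repressor of the monocyte path, went from 13.22 to 12.23 in HL60 and from 9.72 to 10.56 in K562 (-1.82).

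MYC, the growth-promoting transcription factor, went from 15.16 to 10.54 log2 in HL60 and from 13.59 to 12.83 in K562, a difference of -3.86 or 14.5-fold. MXD1, which competes with MYC for its partner MAX, went from 10.74 to 12.81 in HL60 and from 8.67 to 9.12 in K562 (1.63). MAX itself had responses of -0.32 and -0.50. Ribosome biogenesis genes, many of which MYC is known to drive, were more positive in K562 in 18 of 30 members and in HL60 in 0 (median -1.39). Both lines had negative medians, -2.29 in HL60 and -0.87 in K562, and 26 of the 30 were at least 2-fold lower in HL60. LYAR, a nucleolar protein, went from 12.87 to 9.31 in HL60 and from 13.16 to 12.49 in K562 (-2.88). WDR3, of the small subunit processome, went from 11.63 to 7.84 and from 12.19 to 10.85 (-2.45). UTP4, another part of the processome, went from 13.10 to 10.95 in HL60 and stood at 13.23 and 13.30 in K562 (-2.22). The 2 controls lay within 1 log2 unit of each other in LYAR, WDR3 and UTP4.

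Biosynthetic genes differed in the same direction. Of 19 genes of de novo purine and pyrimidine synthesis 14 were more positive in K562 and 0 in HL60 (median -1.60), with medians of -2.24 in HL60 and -0.45 in K562. ATIC, which closes the purine ring, went from 12.89 to 9.51 in HL60 and from 13.12 to 12.27 in K562 (-2.54). IMPDH2, the first enzyme toward guanine nucleotides, went from 13.98 to 12.07 and from 13.66 to 13.96 (-2.21). DHODH, of pyrimidine synthesis, was lower in both lines, with responses of -2.53 and -1.50. Aminoacyl-tRNA synthetases had 9 of 16 more positive in K562 (median -1.15), and amino acid stress genes and transporters 9 of 21 against 1 in HL60 (median -0.60). ASNS, asparagine synthetase, went from 11.85 to 8.65 in HL60 and stood at 12.11 and 12.23 in K562 (-3.32). PHGDH, which opens serine synthesis, went from 10.49 to 6.72 and from 8.01 to 7.43 (-3.20). SRM, spermidine synthase, went from 13.87 to 9.72 and from 14.89 to 13.94 (-3.20).

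Cholesterol and fatty acid synthesis had 13 of 23 members more positive in K562 and 0 in HL60 (median -1.10), with medians of -1.20 and -0.04. MSMO1, a sterol oxidase, went from 13.30 to 10.84 log2 in HL60 and from 13.85 to 14.95 in K562 (-3.56). HMGCS1, which feeds the mevalonate path, went from 10.61 to 8.24 and from 11.92 to 12.57 (-3.02). FADS2, a fatty acid desaturase, went from 7.32 to 6.21 and from 11.71 to 13.29 (-2.69). The lipogenic SCD and ACACA were lower in both lines, with responses of -4.13 and -1.18 for SCD and -3.66 and -1.23 for ACACA. In K562, therefore, MSMO1, HMGCS1 and FADS2 were higher after treatment while SCD, ACACA and FASN were lower. In glycolysis 4 of 20 were more positive in HL60 and 7 in K562. HK1, a hexokinase, went from 6.24 to 10.80 in HL60 and from 14.73 to 14.16 in K562 (5.13), and the glucose transporter SLC2A3 from 10.96 to 14.71 and from 13.87 to 12.46 (5.16). SLC2A1, the related transporter, went the reverse way, from 10.60 to 9.11 and from 12.82 to 13.72 (-2.38). Oxidative phosphorylation subunits had 4 of 16 more positive in K562 and 0 in HL60 (median -0.75).

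DNA replication genes were more positive in K562 in 17 of 30 members and in HL60 in 0 (median -1.12), with medians of -1.19 in HL60 and -0.08 in K562. CDT1, which loads the replicative helicase, went from 7.69 to 6.61 in HL60 and from 7.96 to 9.07 in K562 (-2.19). ORC1, of the origin recognition complex, went from 11.83 to 10.32 and from 12.38 to 12.78 (-1.90). MCM6 and MCM2, of the helicase, had differences of -1.79 and -1.58. Mitosis genes did not part in this way. Only 2 of 27 were more positive in K562 and 0 in HL60 (median -0.16), and their medians were 0.11 and 0.13. Fanconi and homologous recombination genes lay between, with 4 of 14 more positive in K562 (median -0.78). Replication-dependent histone genes had 8 of 27 more positive in HL60 and 4 in K562. H2AC8 went from 8.86 to 12.07 in HL60 and from 14.94 to 13.52 in K562 (4.64), and the linker histone H1-5 stood at 13.63 and 13.89 in HL60 and went from 9.34 to 12.45 in K562 (-2.85). Histone genes of 1 class are close in sequence, and their probe sets may share signal.

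Genes known to take up, activate or break down cytidine analogues were compared next. Of 16 members 5 were more positive in K562 and 2 in HL60 (median -0.61). Whether OR21 depends on them was not tested. CDA, cytidine deaminase, went from 7.73 to 10.67 log2 in HL60 and was under background in K562 on both arrays. The nucleoside transporter SLC29A1 went from 12.40 to 11.51 in HL60 and from 11.67 to 12.71 in K562 (-1.93), and SLC29A2 from 9.60 to 6.22 and from 10.26 to 9.34 (-2.45). DCK, the kinase that activates deoxycytidine analogues, stood at 11.66 and 11.32 in HL60 and at 9.82 and 9.66 in K562, so that untreated HL60 had more of it. UCK1, a uridine-cytidine kinase, differed by -0.39 between responses. SAMHD1, which breaks down deoxynucleotides, went from 11.84 to 13.61 and from 9.55 to 10.21 (1.10). DCTD, deoxycytidylate deaminase, went from 11.15 to 9.22 and from 12.34 to 11.84 (-1.43).

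DNA methylation genes had 2 of 17 past 2-fold each way (median -0.34). DNMT1 went from 11.05 to 9.98 in HL60 and from 10.83 to 10.38 in K562 (-0.63), and its partner UHRF1 from 11.56 to 10.69 and from 11.37 to 10.84 (-0.34). DNMT3A, a de novo methyltransferase, was higher in both lines by 0.98 and 0.92. DNMT3B, the other one, was near or under background in HL60 and went from 10.43 to 9.40 in K562. ZBTB38, a reader of methylated DNA, went from 5.91 to 8.68 in HL60 and from 9.89 to 10.21 in K562 (2.44). TET1, an enzyme that oxidises methylcytosine, was near background in HL60 and stood at 8.41 and 8.73 in K562.

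In the classes known to respond to loss of methylation, which line had the larger response depended on the gene. Germline and meiosis genes had 8 of 32 more positive in K562 and 2 in HL60 (median -0.14), and 13 were at least 2-fold higher in each line. GCNA, a germ cell nuclear protein, went from 5.76 to 11.96 log2 in HL60 and from under background to 13.59 in K562. STAG3, a meiotic cohesin, went from 6.04 to 8.42 and from 6.21 to 10.20 (-1.61). TDRD12 reached 10.19 in K562 from under background and stayed under it in HL60, whereas TDRD9 reached 8.91 in HL60 and stayed under it in K562. These 2 tudor-domain genes of the piRNA pathway thus came up in 1 line each. Of 27 cancer-testis antigens 6 were more positive in HL60 and 4 in K562. XAGE1B reached 10.91 in K562 and 6.82 in HL60 from controls under background. SSX1 went from 5.49 to 10.00 and from 5.82 to 7.68 (2.64). The CT45A copies, nearly identical in sequence, were already high in untreated K562: CT45A6 went from 11.97 to 14.08 there and from 5.70 to 10.51 in HL60 (2.70).

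Interferon-stimulated genes had 11 of 38 more positive in HL60 and 6 in K562 (median 0.31), with medians of 0.85 and 0.47. RSAD2, an antiviral enzyme, stood at 6.15 and 6.54 in HL60 and went from 6.63 to 10.32 in K562 (-3.29). IFI27 went from 6.09 to 7.48 and from 5.56 to 10.05 (-3.10), and IFI6 from 7.92 to 11.27 and from 8.51 to 13.67 (-1.80). The membrane proteins IFITM1 and IFITM3 went from 9.37 to 13.26 and from 10.21 to 13.88 in HL60 and from 16.70 to 16.06 and from 14.23 to 15.03 in K562 (4.53 and 2.88). OAS1, MX2 and IFIT2 reached 8.65, 8.46 and 8.46 in HL60 and stayed near or under background in K562. The list thus held large differences in both directions. In class I presentation, PSMB9, an immunoproteasome subunit, stood at 12.20 and 12.56 in HL60 and went from under background to 8.89 in K562, a difference of -3.10 or beyond. HLA-F went from 10.65 to 12.61 in HL60 and from 7.35 to 6.87 in K562 (2.45). IFI16, a DNA sensor, went from 7.62 to 13.02 in HL60 and was under background in K562.

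Metallothioneins, which bind zinc and copper, were described in a list of 10 members that also holds the zinc exporter SLC30A1. Counted for each line separately, 8 of the 10 members were at least 2-fold higher in HL60 and 8 in K562. Their medians were 1.60 log2 in HL60 and 2.34 in K562, and 4 of the 10 were more positive in K562. MT2A went from 15.65 to 17.22 in HL60 and from 10.52 to 14.55 in K562 (-2.47), and MT1X from 15.06 to 16.35 and from 9.01 to 12.41 (-2.11). K562 remained below HL60 in both genes after treatment. Heat shock and NRF2 genes had 6 of 18 members more positive in HL60 and 3 in K562 (median 0.08), with GCLM the lowest (-1.44). In this list HMOX1, which breaks down haem, reached 9.14 in HL60 from under background and was under background in K562. NQO1, a quinone reductase, went from 9.00 to 10.98 in HL60 and had a response of -1.45 in K562, where it ended at 11.55 (3.42).

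Genes of growth arrest and survival differed in part. CDKN1A, the p21 inhibitor of cyclin-dependent kinases, went from 5.51 to 9.72 log2 in HL60 and in K562 from under background to 5.43. Both lines are known to lack functional p53. Genes that p53 can induce had 9 of 23 members more positive in HL60 and 3 in K562 (median 0.44). TNFRSF10B, a death receptor, was higher in both lines, by 2.73 and 1.36. In the BCL2 family, with 5 of 16 more positive in HL60 and 1 in K562 (median 0.58), MCL1 went from 12.82 to 14.53 and from 13.35 to 12.30 (2.76). BCL2A1 went from 10.36 to 14.45 in HL60 and stood near background in K562, and BCL2 was lower in both, with responses of -2.69 and -1.64. Of 7 CDK inhibitors 1 was more positive in each line. CDK6, a cyclin-dependent kinase of progenitors, went from 10.41 to 7.13 and from 9.98 to 9.40 (-2.70). KIT, the stem cell factor receptor, went from 5.56 to 8.30 in K562 and was under background in HL60.

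Matrix and adhesion genes had 11 of 22 members more positive in HL60 and 4 in K562 (median 1.12). TIMP1, an inhibitor of matrix proteases, went from 11.05 to 15.71 log2 in HL60 and from 14.28 to 14.97 in K562 (3.97). The hyaluronan receptor CD44 went from 8.00 to 11.68 and from 5.93 to 6.52 (3.09). ITGA4, an integrin chain of progenitors, went from 10.90 to 8.52 in HL60 and stood at 6.87 and 7.09 in K562 (-2.60). LAMB1, a laminin chain, went from 7.97 to 10.36 in K562 and was under background in HL60.

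Markers of other cell types were checked in the same way, with medians of 0.60 for T and NK lymphocytes, 0.06 for B lymphocytes, 0.12 for epithelium, -0.33 for fibroblasts and endothelium and 0.28 for neural cells. Of 14 T and NK markers 6 were more positive in HL60 and 0 in K562, of 9 B markers 0 in each, of 12 epithelial markers 4 and 1, of 13 markers of fibroblasts and endothelium 1 and 0, and of 11 neural markers 3 and 0. These counts include dim genes: 6 T and NK markers and 9 neural markers were measured in neither line. With values under the background median set to it, the T and NK median was 0.11 and the neural median 0.21. GNLY, a cytotoxic granule protein, reached 9.28 in HL60 from under background. PECAM1, carried by endothelium and by myeloid cells, went from 10.24 to 14.82 in HL60 and stood at 6.51 and 6.67 in K562 (4.41). Of 16 housekeeping genes 1 was more positive in HL60 and 3 in K562 (median -0.25), HPRT1 with -1.65 and ACTB with 1.02 at the ends.

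Promoter letters were read for 3 motifs on both strands of the 300-base promoters: CACGTG, the E-box that MYC and its relatives bind, AGATAA, which GATA factors bind, and GAGGAAG, which holds the core of PU.1 sites. CACGTG contains a CpG, and the 3 do not contain one another. CACGTG was in 8.7% of all promoters and 10.8% of those of genes measured in both lines. It was in 14.1% of the genes more positive in K562, 9.1% of those more positive in HL60, and 41 of 222 (18.5%) of the genes at least 4-fold lower in HL60 that moved under 2-fold in K562. Among ribosome biogenesis genes 8 of 24 held it. The share was not tied to one direction, since 6 of 17 lysosomal genes (35.3%) and 8 of 43 genes at least 4-fold higher in both lines (18.6%) held it too.

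AGATAA was in 7.6% of all promoters and 4.6% of those of genes measured in both lines. It was in 6 of 15 promoters of the haem and red cell membrane list and in 0 of 21 of the genes at least 4-fold higher in K562 that moved under 2-fold in HL60. GAGGAAG was in 14.2% of all promoters, in 42 of 192 (21.9%) of the genes at least 4-fold higher in HL60 that moved under 2-fold in K562, and in 7 of 22 of the phagocyte receptors. Phagocyte receptor promoters were also poor in CpG, with a median of 3.5, while those of ribosome biogenesis genes had 21.5. These are matches of letters in a fixed window, and binding was not measured.

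Scaling bears on list medians. Median centring and both control scalings shift every gene by the same amount, so they cannot change the order of the lists. Of 49 lists, 22 had a median difference of at least 0.5 log2 in size, and 20 of them kept its sign under quantile normalization, median centring, both control scalings and a background floor. Spike scaling lowers every list median by the same amount, so a negative median could not change sign under it. Median centring and positive-control scaling shift medians by too little to turn one of 0.5 log2. For those lists the kept sign was fixed in advance. The BCL2 family (-0.28) and the T and NK markers (-0.27) turned negative when arrays were scaled to the hybridisation spikes. So did the lists with small positive medians, among them interferon-stimulated genes (-0.56), p53 targets (-0.42) and cancer-testis antigens (-0.58). Under that scaling the medians of phagocyte receptors, chemokines and haem and red cell membrane genes were 2.13, 1.25 and -3.22. Those of S100 and secondary granule genes and of the NADPH oxidase were 1.23 and 0.79. Lysosomal genes (0.06), NF-kB feedback and inflammatory genes (0.16) and matrix and adhesion genes (0.25) stayed positive but fell under 0.5.

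**Figure D5:**
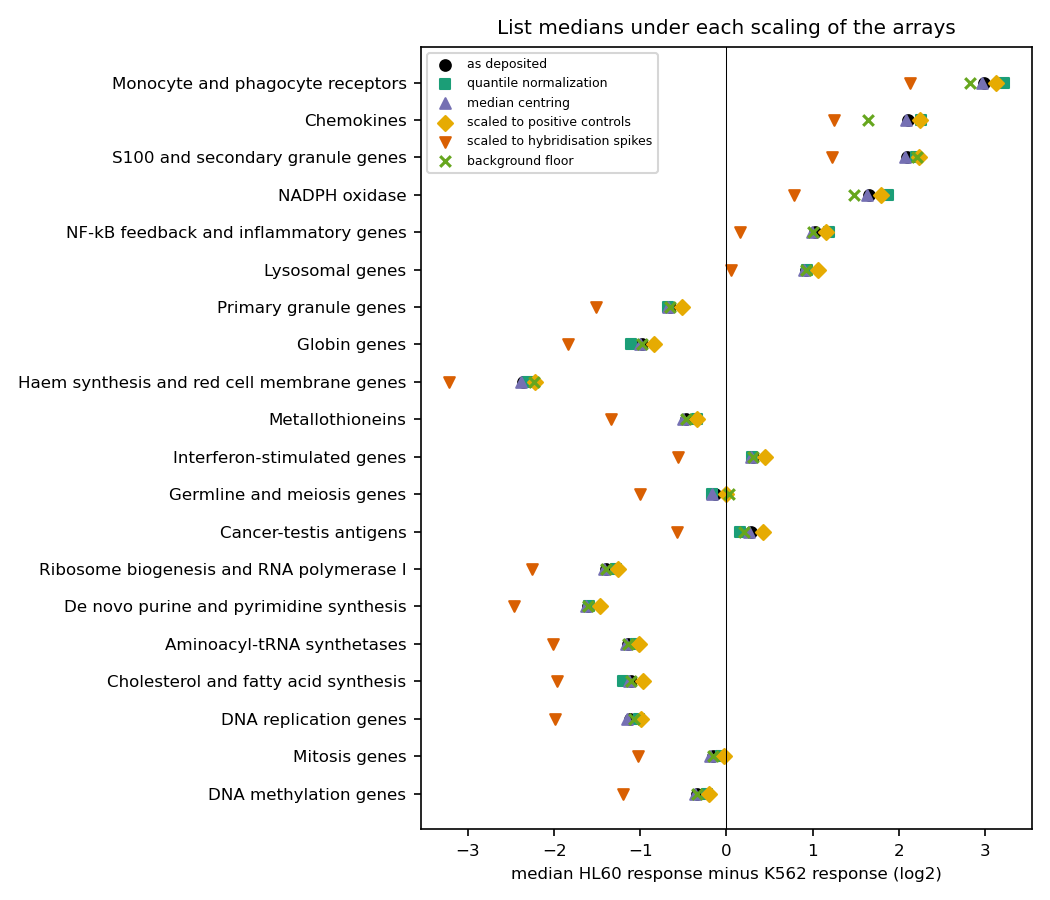
Median HL60 response minus K562 response, in log2 units, of 20 gene lists with the values as deposited and under 5 other scalings or floors of the arrays (symbols). Scaling to the hybridisation spikes by construction shifts every list to the left by the same amount. Phagocyte receptors (2.13) and haem and red cell membrane genes (-3.22) keep their sides.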

How the data were processed

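RNA of the 10 samples was hybridised to single-colour arrays, with total RNA taken by a Direct-zol kit, per the labels. The authors deposited linear intensities per probe set. Their software, background correction, normalization and genome build are not given in the sources used here. Log2 of each value was taken, with neither a pseudocount nor further normalization. A platform annotation named 17709 of 24351 rows, and 6642 rows were not listed. The probe set with the highest mean was kept for the 20 genes with several, which left 17687 genes. Symbols and promoters came from RefSeq tables (GRCh38.p14). The 4 arrays were taken by their labels, and 2 responses were subtracted as stated above. Whether arrays share a culture is not in the labels, nor is the medium of K562. Precision is limited by having 1 array a condition.

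Genes were named by rule: the 12 largest differences each way among genes measured in both lines, 6 opposite and 6 like responses each way, the 5 largest responses measured in 1 line only, up to 4 members of each list, and a fixed set of drug-handling, methylation and lineage genes. Other list members were chosen after their values were seen. Members, lists and rule were chosen with earlier results of these data known. A value at or under background in 1 array gave a minimum size, with that value set to the background median. Steps were tested on simulated data. Python 3.11.15, numpy 2.4.6 and pandas 2.3.3 were used. Alternatives were quantile normalization, median centring, scaling to spikes or positive controls, a background floor, 2 filters on dim genes, a pseudocount of 32 and the mean of probe sets.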

Additional observations from a re-analysis of the deposited data

Results flagged for a closer look

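Among the genes picked by the naming rule and measured in both lines, those that moved at least 2-fold in opposite directions in the 2 lines, on 1 array a condition, were set apart. The difference between the lines was not tested. They number 26, 13 in each direction. FECH, described above but not picked by the rule, moved in the same way (-3.68). The differences of those higher in HL60 and lower in K562 were 4.73 for C3AR1, 5.16 for CD3D, 3.68 for GALM, 4.47 for GATA2, 4.64 for H2AC8, 4.44 for H2BC8, 2.98 for HSPA1A, 6.37 for ID1, 2.76 for MCL1, 3.42 for NQO1, 3.87 for PLXDC2, 3.86 for SH3BGRL3 and 5.16 for SLC2A3. H2AC8 and H2BC8 belong to families of near-identical histone genes, and HSPA1A has a near-identical neighbour copy, so their probe sets may share signal. The differences of those lower in HL60 and higher in K562 were -2.19 for CDT1, -2.69 for FADS2, -3.92 for FUZ, -4.14 for LGALS9, -5.81 for MEST, -3.56 for MSMO1, -3.04 for PDK1, -3.96 for PRKACB, -5.03 for RGCC, -3.95 for SLC17A9, -3.72 for SLC39A8, -5.99 for TENT5C and -4.12 for UROS. For CD3D and ID1 the HL60 control, for LGALS9, MEST and RGCC the K562 control, and for C3AR1 and PLXDC2 the treated K562 array lay under background. With those values set to the background median, the bounds were at least 4.56 for C3AR1, 3.70 for CD3D, 4.36 for ID1 and 3.38 for PLXDC2, and -3.40 or beyond for LGALS9, -4.43 for MEST and -4.83 for RGCC.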

How the results depend on the processing

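Of 17687 genes, 1887 were at least 2-fold more positive in HL60 and 2264 in K562. Scaling to the hybridisation spikes gave 682 and 8359. Keeping only genes measured in both lines gave 1023 in HL60, and keeping genes 2 log2 units above background, a filter chosen after seeing the data, gave 795 and 1293, as fewer genes were counted. The counts stayed within 1.5 times under the other alternatives, including the positive-control scaling, also chosen after seeing the data. List medians at 0.5 or above numbered 9 and those at -0.5 or below 13. With spike scaling these became 4 and 37, and with the stricter filter 14 lists were at 0.5 or above. Among list medians at least 0.5 in size, those that changed sign were -0.28 for the BCL2 family and -0.27 for T and NK markers with spike scaling, and, with the stricter filter and fewer members, 0.063 for globins and 0.079 for HL60 identity markers. Among named genes at least 2-fold apart, SPATA18, dim on all 4 arrays, was the one to change sign, to 0.026 with the background floor. Some smaller differences changed sign too, among them those of NEFL and KDR with the floor and of GATA1 (-0.21) with spike scaling. No paired analysis was possible because the labels give no replicate numbers and each condition has 1 array. All HL60 responses rest on the treated array that stood apart in its spikes, and 1478 genes at least 2-fold apart have a value under background.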

Other observations

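Of 3739 gene or transcript probe sets that the annotation used here left unnamed, 373 (9.98%) were at least 2-fold more positive in HL60 and 365 (9.76%) in K562. By chromosome, the median difference of named genes ran from -0.23 on chromosome 10 to 0.01 on chromosome 17.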
